A study of Drosophila melanogaster with 6 samples.

Results

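The genes that encode the subunits of the proteasome were examined in RNA sequencing values of whole brains from wandering larvae of Drosophila melanogaster. They were chosen by name alone, as genes whose symbol begins with Prosalpha, Prosbeta, Rpn or Rpt followed, for the last pair, by a digit. This gave 48 of the 14012 genes in the tables, with 60 of 21081 transcripts. Of these genes 32 are general subunits, and 16 carry a T or R suffix and are copies of a general subunit. The series holds 6 samples in 3 groups, 2 samples in each, and every sample is a pool of dissected brains. All groups carried the driver E347-GAL4, which switches on UAS transgenes in the neurons that the series names after it. Ablation brains were w, E347-GAL4/yw,UAS-ShiDN with a further copy of the transgene as UAS-ShiDN/+, in pools of 100 and 91 brains. ShiDN is dominant-negative shibire, where shibire encodes dynamin in flies, and the series calls this group neuronal ablation. Activation brains were w, E347-GAL4/yw;+;UAS-NachBac, in pools of 100 and 97 brains, and NachBac is a bacterial sodium channel that raises excitability. Control brains were w, E347-GAL4/w1118;+;+, in pools of 100 and 86 brains. Both transgenic groups thus carry a yw chromosome that the control group lacks, so a difference of both from control cannot be told apart from that chromosome.

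The proteasome is the large protease that degrades proteins tagged with ubiquitin. Its core is a barrel of stacked rings: the outer rings are built of alpha subunits, which form the gate, and the inner rings of beta subunits, 3 of which (Prosbeta1, Prosbeta2 and Prosbeta5) carry the cutting sites. A cap sits on the barrel, with a base of ATPases (Rpt1 to Rpt6) and non-ATPase subunits (Rpn1, Rpn2, Rpn10 and Rpn13) that bind and unfold substrates, and a lid (the other Rpn subunits) that removes ubiquitin. Every cell uses this machine, neurons and glia included. In Drosophila, several subunits have a second copy that is known from the testis, and most copies with a T or R suffix are of this kind.

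The values are the authors' group values in FPKM, fragments per kilobase of transcript scaled to the mapped fragments, 1 per group in each table of a pair of groups. They combine both samples of a group, so no value per sample, no spread between samples and no sequencing depth stands beside a level. A gene's level is the sum over its transcripts, and a change is log2 of (FPKM + 1) in the group named first over (FPKM + 1) in the other. The p and q values are from Cuffdiff's test in the authors' deposited table, and a transcript is called at q of at most 0.05. A p that misses this does not show that groups had the same level. In bulk tissue, fewer cells of a type and less RNA per cell cannot be told apart.

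Markers of neurons and neuroblasts were all present. Their 10 genes summed to 649 FPKM in ablation against 618 FPKM in control, with 6 higher and 4 lower. In activation they summed to 646 FPKM against 602 FPKM in control, with 7 higher and 3 lower. The 4 glia markers summed to 268 FPKM in ablation against 277 FPKM in control, and to 261 FPKM in activation against 270 FPKM in control, with 2 higher and 2 lower in each. Similar sums thus do not show equal cell content. Markers of neighbouring tissues had unequal sums between groups. Against control Cuffdiff called 1 of them in ablation, a midgut marker with a higher value, where 0.154% of all tested transcripts were called. That marker is listed at 0 in control, against 38.6 FPKM in ablation, so the call is not read as a change. In activation Cuffdiff called 0 of them and 0% of all tested transcripts. The 8 midgut markers summed to 1572 FPKM in ablation against 8.41 FPKM in control, with 8 of 8 higher, and to 3.81 FPKM in activation against 8.21 FPKM in control, with 1 higher, 5 lower and 5 listed at 0 in activation. The 6 fat body markers summed to 407 FPKM in ablation against 137 FPKM in control, with 6 of 6 higher, and to 44.7 FPKM in activation against 134 FPKM in control, with 6 of 6 lower. The 6 muscle markers summed to 74.4 FPKM in ablation against 62.0 FPKM in control, with 4 higher and 2 lower, and to 31.2 FPKM in activation against 60.4 FPKM in control, with 2 higher and 4 lower. The 4 salivary gland markers summed to 156 FPKM in ablation against 247 FPKM in control and to 64.3 FPKM in activation against 240 FPKM in control, with 1 higher and 3 lower in each. Most of the sum in control is Sgs8, at 60.5 FPKM in ablation against 184 FPKM in control, while Sgs7 was at 87.5 FPKM in ablation against 47.6 FPKM in control. Proteasome subunits are expressed in all tissues, and the part of these neighbouring tissues in the results below was not tested.

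General subunits were among the more abundant brain transcripts, and their levels differed by role. Leaving out Prosalpha1, which is listed at 0 in every group, the 31 others ran from 112 to 375 FPKM in ablation and from 138 to 498 FPKM in control, and from 133 to 391 FPKM in activation and 135 to 485 FPKM in control in the second table. In the control group 5.45% of all genes reached the level of the lowest of them. The beta ring stood highest, with a median of 345 FPKM in ablation against 446 FPKM in control, and 338 FPKM in activation against 434 FPKM in control. The alpha ring followed, with a median over 6 genes of 266 FPKM in ablation against 291 FPKM in control, and 280 FPKM in activation against 283 FPKM in control. The 8 lid genes had medians of 187 FPKM in ablation against 216 FPKM in control, and 203 FPKM in activation against 210 FPKM in control. The 6 ATPases had medians of 208 FPKM in ablation against 198 FPKM in control, and 200 FPKM in activation against 192 FPKM in control. The base subunits without ATPase activity were lowest, at 129 FPKM in ablation against 150 FPKM in control, and 143 FPKM in activation against 146 FPKM in control.

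**Figure D1:**
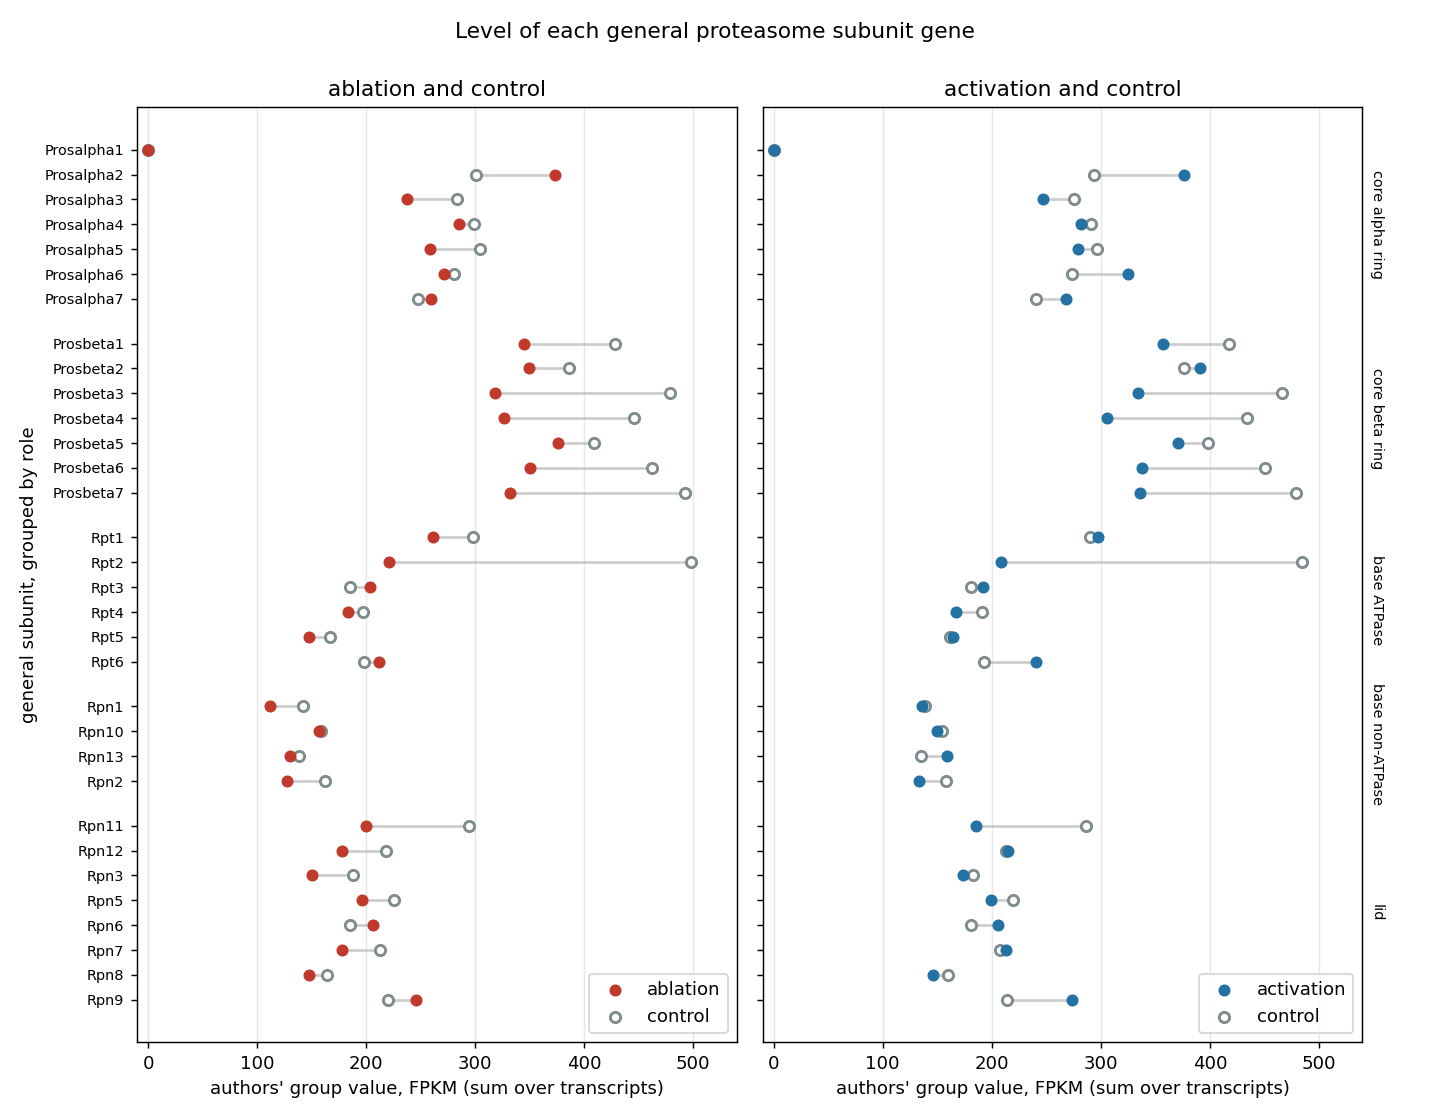
Group values in FPKM (x axis, summed over transcripts) of the 32 general subunit genes (rows, grouped by role). The left panel shows ablation (filled) and control (open), the right panel activation (filled) and control (open), and a grey line joins the points of a gene. Rpt2 has the longest line in both panels, with 221 FPKM in ablation against 498 FPKM in control and 209 FPKM in activation against 485 FPKM in control, and 7 of 7 beta subunits lie lower in ablation.

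The comparison of ablation with control concerns brains in which the E347 neurons carry the blocked dynamin. Of the 32 general subunits 25 had a lower value in ablation, 6 a higher value and 1 was at 0 in both groups. Over all 8512 genes with a tested transcript 43.6% were lower in ablation, and 54.3% of the 1058 tested genes that average at least 100 FPKM were. Values at least 1.5-fold lower were found for 2 of the 32, Rpt2 and Prosbeta3, beside 13.6% of all genes with a tested transcript. Of those 8512 genes only 1058 average at least 100 FPKM, and no 1.5-fold share was computed for such genes in any comparison. The median change over the general subunits was -0.18, beside 0.10 over all genes with a tested transcript and -0.04 over those of at least 100 FPKM. Over all 48 members the median was -0.08, with 28 lower, 6 higher and 14 equal, which are all listed at 0 in both groups. Cuffdiff called 0 of the 36 tested member transcripts, where 0.154% of 11676 tested transcripts were called. Those called were the 18 transcripts at the smallest listed p of Cuffdiff's test, 5e-05. An unadjusted p under 0.05 was found for 2 of the 36 tested member transcripts, 1 of Rpt2, which was lower in ablation, and 1 of Rpn13. Of all tested transcripts 2.05% had such a p, and 0.737% had one and were lower in ablation. When p was recomputed from the deposited statistic as a normal value, Rpt2 alone remained, and Rpn13 carries an inconsistency in the table that is described with its transcripts.

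The beta ring had lower values in ablation for 7 of 7 genes, with a median change of -0.40. Prosbeta3, a structural subunit, was at 318 FPKM in ablation against 479 FPKM in control, a change of -0.59. Prosbeta7, the beta subunit with the highest level in control, was at 332 FPKM in ablation against 492 FPKM in control, and Cuffdiff gave it no test in any table. Prosbeta4 was at 327 FPKM against 446 FPKM and Prosbeta6 at 351 FPKM against 463 FPKM. The 3 catalytic subunits differed least from control. The caspase-like subunit Prosbeta1 was at 345 FPKM in ablation against 428 FPKM in control. The trypsin-like subunit Prosbeta2, the lowest of the ring in control, was at 349 FPKM in ablation against 386 FPKM in control. The chymotrypsin-like subunit Prosbeta5 was at 375 FPKM in ablation against 409 FPKM in control. None of these differences passed, and the p in the authors' deposited table ran from 0.157 for Prosbeta3 to 0.730 for Prosbeta5.

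The alpha ring had no common direction, with 2 genes higher, 4 lower and a median of -0.06 over the 6 genes above 0. Prosalpha2 had the largest positive change of all general subunits, at 373 FPKM in ablation against 301 FPKM in control, a change of 0.31. Prosalpha5, the highest alpha subunit in control, was at 259 FPKM in ablation against 304 FPKM in control, and Prosalpha7, the lowest above 0, was at 260 FPKM against 247 FPKM. In control, each of these 6 alpha subunits lay below every beta subunit, while in ablation Prosalpha2 lay within the range of the beta ring. The ratio of the ring medians, beta over alpha, was 1.30 in ablation and 1.53 in control.

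Among the ATPases, Rpt2 stood apart in control. This subunit, whose tail is known from yeast to help open the gate of the core, was at 221 FPKM in ablation against 498 FPKM in control, 0.444 times the control value. In control it was the highest of the 31 general subunits above 0, at 2.53 times the median of the other 5 ATPases. In ablation it ranked 16 of 31, at 1.09 times that median. The deposited log2 change was -1.17, with a standard error of 0.55 as implied by the deposited statistic, and the authors' deposited table gives p = 0.0038 with q = 0.965. This p was the 46th smallest of the 11676 transcripts tested, and the difference did not pass. The other ATPases ran from -0.19 to 0.13. Rpt1, the highest of them, was at 262 FPKM in ablation against 298 FPKM in control, and Rpt5, the lowest, at 148 FPKM against 166 FPKM. Rpt3 was at 203 FPKM in ablation against 185 FPKM in control, and Rpt6 at 212 FPKM against 198 FPKM. Rpt2 lies on 3R of build dm3 from 19754972 to 19757247, in a locus that also holds CG31142. CG31142 was at 29.7 FPKM in ablation against 17.4 FPKM in control, so its value lay in the opposite direction.

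The lid had 6 of 8 genes lower in ablation and the base subunits without ATPase activity 4 of 4, with medians of -0.23 and -0.21. Rpn11, the lid enzyme that strips ubiquitin from substrates and the highest lid gene in control, was at 199 FPKM in ablation against 294 FPKM in control (p = 0.132 in the authors' deposited table). Rpn8, the lowest of the lid in control, is its partner subunit and was at 148 FPKM against 164 FPKM. Rpn9 was at 246 FPKM in ablation against 220 FPKM in control and Rpn6, a lid subunit that contacts the core, at 206 FPKM against 185 FPKM. Of the base, the scaffold Rpn2, highest in control, was at 127 FPKM in ablation against 162 FPKM in control. The ubiquitin receptor Rpn13, lowest in control, was at 130 FPKM against 138 FPKM, and the ubiquitin receptor Rpn10 at 157 FPKM against 158 FPKM. The Rpn13 sums use FPKM values that its deposited log2 changes contradict, so its direction and its rank in control are uncertain.

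**Figure D2:**
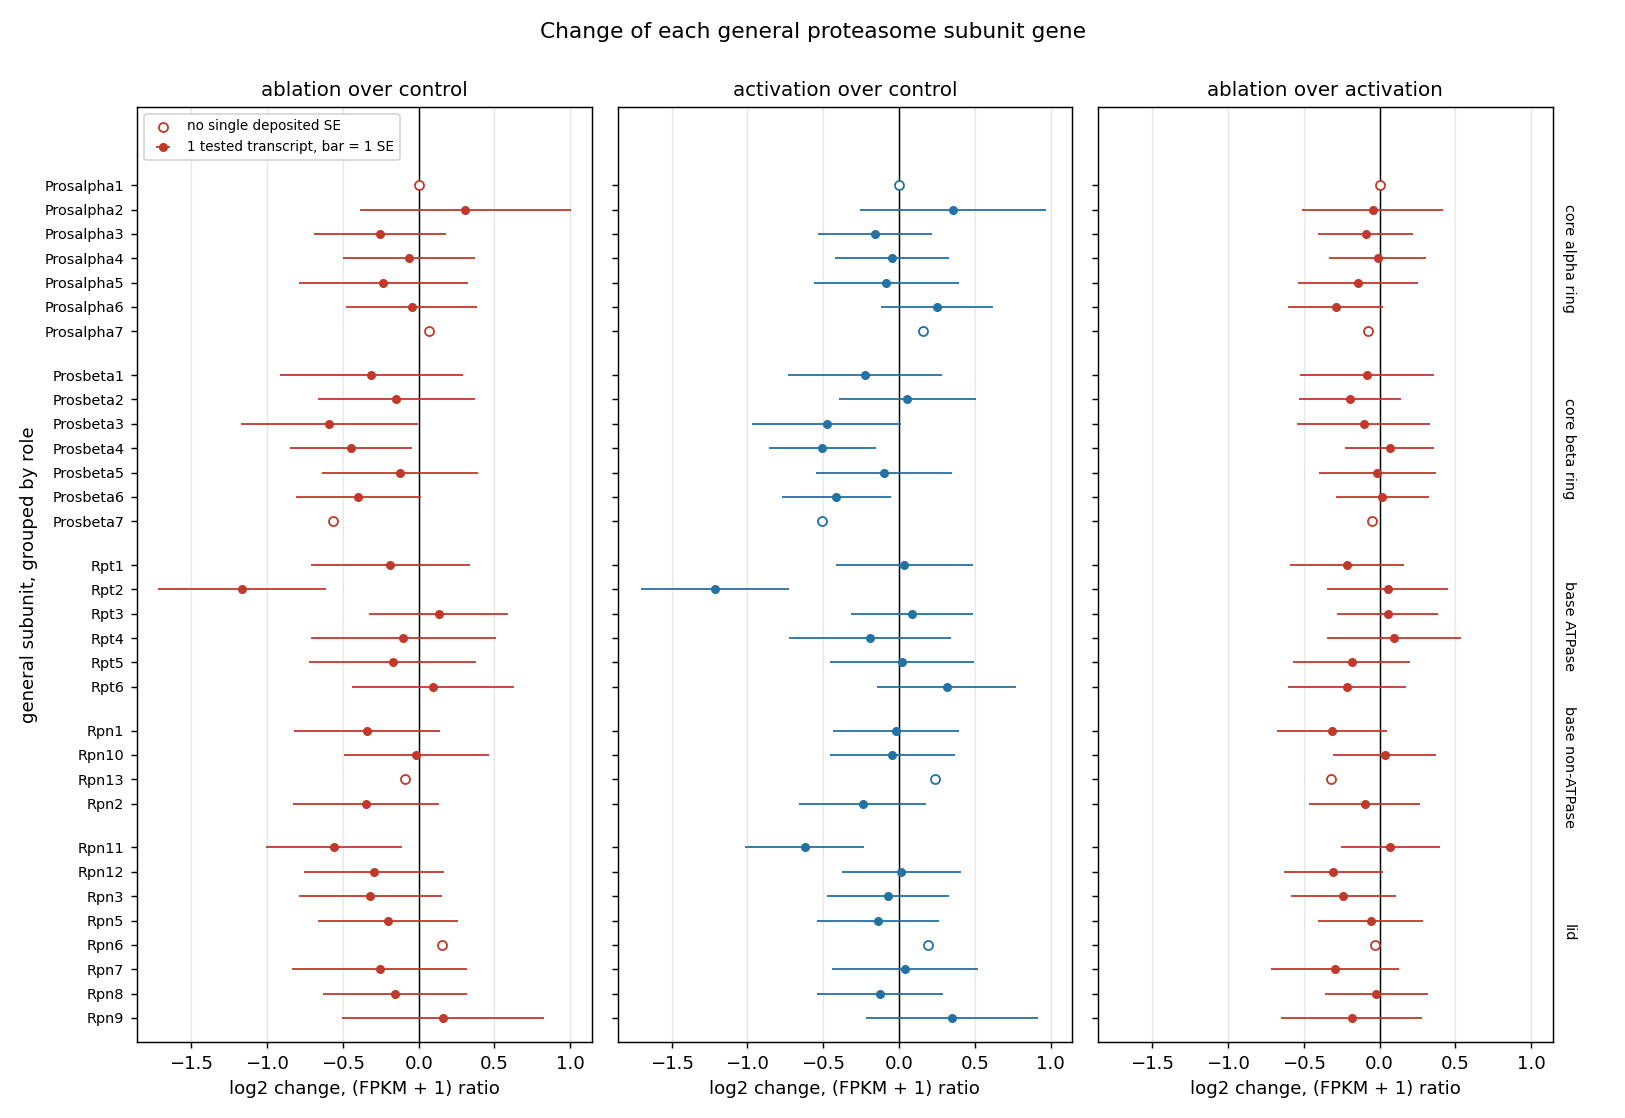
Log2 change (x axis) of each general subunit gene (rows, grouped by role) for ablation over control, activation over control and ablation over activation. Filled points have 1 tested transcript and a bar of 1 standard error implied by the deposited statistic, and open points have no single such error. In the first and second panels 4 of 27 filled points lie farther from 0 than their bar, with Rpt2 farthest at -1.17 and -1.21, and in the third 0 of 27 do. No share over all tested transcripts stands beside these counts.

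The implied standard errors come from the deposited statistic and are no spread between samples. The deposited p does not follow from that statistic. In ablation over control Prosbeta4 had a statistic of -1.11 and Prosbeta3 one of -1.01, yet Prosbeta3 ranked ahead by p. For Rpt2 the deposited p is smaller than its statistic gives as a normal value, in both comparisons with control. Its rank by p and its standard error are thus separate measures. For the 27 general subunits with 1 tested transcript the implied standard errors ran from 0.40 to 0.70 in ablation over control, with a median of 0.48. The change was larger than its standard error for 4 of them, Rpt2, Prosbeta3, Prosbeta4 and Rpn11. Apart from Rpt2, p ran from 0.132 to 0.969 in the authors' deposited table.

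The comparison of activation with control concerns brains whose E347 neurons carry the sodium channel. Here the general subunits were spread around control, with 18 lower, 13 higher and 1 at 0 in both groups, beside 43.4% lower over all 8514 genes with a tested transcript and 51.5% over the 1037 that average at least 100 FPKM. Values at least 1.5-fold lower were found for 2, Rpt2 and Rpn11, beside 13.7% of all genes with a tested transcript. The median change was -0.05, beside 0.10 over all genes with a tested transcript and -0.01 over those of at least 100 FPKM. When centred on the median over all genes with a tested transcript, 7 of 32 were higher. Over all 48 members the median was 0.00, with 19 lower, 16 higher and 13 equal. The 13 are all listed at 0 in both groups, and the median falls among them. Over members that reach 1 FPKM it was -0.05. Cuffdiff called 0 of the 38 tested member transcripts and 0% of all 11809 tested transcripts. The smallest p of Cuffdiff's test here was 5e-05, shared by 11 transcripts, and even that p had q = 0.0537. The 0 is therefore no result about the subunits. Of the 38 tested member transcripts 1, that of Rpt2, had an unadjusted p under 0.05. Of all tested transcripts 3.05% had such a p, and 1.21% had one and were lower in activation. This comparison shares its control samples with the one before, so its values are given side by side and are no independent support.

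Rpt2 was at 209 FPKM in activation against 485 FPKM in control, 0.430 times the control value. It ranked 19 of 31 in activation, at 1.09 times the median of the other ATPases, against 2.53 times in control. The deposited log2 change was -1.22 with an implied standard error of 0.49, and the authors' deposited table gives p = 0.0003 with q = 0.253. That p was the 14th smallest of 11809, and the difference did not pass. CG31142, in the same locus, was at 31.6 FPKM in activation against 17.0 FPKM in control. The other ATPases ran from -0.19 to 0.31, with Rpt6 at 240 FPKM in activation against 193 FPKM in control.

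The beta ring was lower in activation for 6 of 7 genes, with a median change of -0.41. Prosbeta4 was at 305 FPKM in activation against 434 FPKM in control, Prosbeta7 at 336 FPKM against 479 FPKM, and Prosbeta3 at 334 FPKM against 466 FPKM. The catalytic subunits again lay closer to control. Prosbeta1 was at 357 FPKM in activation against 417 FPKM in control. Prosbeta2 was at 391 FPKM in activation against 376 FPKM in control, the 1 beta subunit with a higher value. Prosbeta5 was at 371 FPKM in activation against 398 FPKM in control. The p of beta subunits in the authors' deposited table ran from 0.135 for Prosbeta4 to 0.876 for Prosbeta2, so none of these differences passed.

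Alpha subunits were split evenly in activation, 3 higher and 3 lower. Prosalpha2 was at 376 FPKM in activation against 294 FPKM in control and Prosalpha6 at 325 FPKM against 273 FPKM, changes of 0.36 and 0.25. The ratio of the ring medians, beta over alpha, was 1.21 in activation and 1.53 in control, and 4 of 6 alpha subunits lay below every beta subunit in activation against 6 of 6 in control. In the lid, Rpn11 was at 186 FPKM in activation against 286 FPKM in control (p = 0.0589 in the authors' deposited table), and Rpn9 was at 273 FPKM against 214 FPKM. The remaining lid and base genes ran from -0.24 for Rpn2 to 0.24 for Rpn13. The Rpn13 value rests on FPKM values that its deposited log2 changes contradict, so no direction is drawn from it. Implied standard errors ran from 0.35 to 0.61, and the change was larger than its standard error for Rpt2, Rpn11, Prosbeta4 and Prosbeta6.

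**Figure D3:**
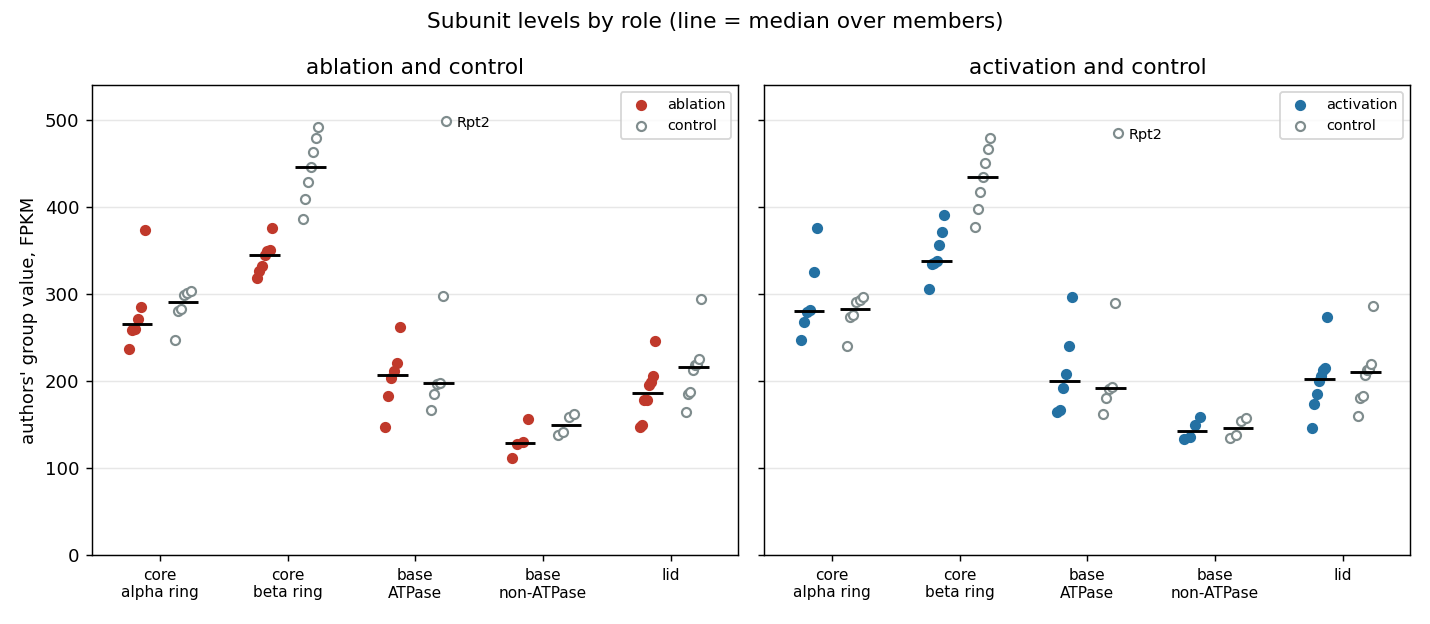
Group values in FPKM (y axis) of 31 general subunit genes by role, with a line at the median over the members of a role. The left panel shows ablation (filled) and control (open), the right panel activation (filled) and control (open), and Prosalpha1 is left out. The beta ring has medians of 345 FPKM in ablation against 446 FPKM in control and 338 FPKM in activation against 434 FPKM in control, and Rpt2 lies above every other member in control.

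In the direct comparison, 24 of 32 general subunits were lower in ablation than in activation, 7 were higher and 1 was at 0 in both, beside 48.8% lower over all 8959 genes with a tested transcript and 60% over the 1031 that average at least 100 FPKM. The median change was -0.08, beside 0.01 over all genes with a tested transcript and -0.05 over those of at least 100 FPKM. Over all 48 members the median was -0.03, with 27 lower, 8 higher and 13 equal, which are all listed at 0 in both groups. All changes of general subunits lay between -0.32 and 0.10, and 0 were at least 1.5-fold lower, beside 9.9% of all genes with a tested transcript. Cuffdiff called 0 of the 39 tested member transcripts, where 0.37% of 12419 tested transcripts were called. An unadjusted p under 0.05 was found for 0 members, where 3.21% of all tested transcripts had such a p and 1.68% had one and were lower in ablation. The midgut markers summed to 1541 FPKM in ablation against 3.83 FPKM in activation and the fat body markers to 399 FPKM in ablation against 44.9 FPKM in activation, with 5 transcripts called higher in each list. The 5 called midgut transcripts are all listed at 0 in activation, so those calls are not read as changes. The 6 muscle markers were all higher in ablation, and the part of these tissues in the subunits' values was not tested. Implied standard errors ran from 0.29 to 0.47, and no change of a subunit with 1 tested transcript was larger than its own.

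Rpt2 was at 218 FPKM in ablation and 210 FPKM in activation, a change of 0.05 with an implied standard error of 0.40. The lowest values relative to activation were those of the base and lid genes Rpn13, Rpn1, Rpn12 and Rpn7 and of Prosalpha6. Rpn1, a base scaffold, was at 111 FPKM in ablation against 137 FPKM in activation. Rpn12 was at 175 FPKM against 217 FPKM, Rpn7 at 175 FPKM against 215 FPKM, and Prosalpha6 at 268 FPKM against 327 FPKM. The highest relative to activation were Rpt4, at 180 FPKM in ablation against 169 FPKM in activation, and then Rpn11, Prosbeta4, Rpt3 and Rpt2, with changes from 0.05 to 0.07.

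Of the 48 members 39 have 1 transcript in the tables, and in 3 genes the most abundant transcript was not the same in all groups. For Prosalpha7, an alpha ring subunit, the RA transcript was at 141 FPKM in ablation against 58.1 FPKM in control, and at 124 FPKM in activation against 56.8 FPKM in control. Its RB transcript was at 119 FPKM in ablation against 189 FPKM in control, and at 144 FPKM in activation against 184 FPKM in control. RA thus made up 54.1% of the gene's level in ablation, 46.4% in activation and 23.5% in control. The deposited log2 change of RA was 1.28 in ablation, with an implied standard error of 1.75, and 1.13 in activation, with an implied standard error of 1.58. Neither passed, with p = 0.327 in ablation and p = 0.285 in activation in the authors' deposited table.

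For the ubiquitin receptor Rpn13, RB held 60.3% of the level in ablation, 25.5% in activation and 75.2% in control. RE held 38.0% in ablation, 72.5% in activation and 22.7% in control. RB was at 78.5 FPKM in ablation against 104 FPKM in control, and RE was at 115 FPKM in activation against 30.7 FPKM in control. The tables of control contradict themselves for this gene. The deposited log2 change of RB in ablation is -1.35, while its deposited FPKM values give -0.41, and in activation it is -2.26 where the values give -1.32. The p of RB in ablation was 0.0266, with q = 0.974, in the authors' deposited table, beside a test statistic of -0.47, so no direction is drawn from it. The Rpn13 gene sums use these FPKM values, so their direction against control and the gene's place as lowest in control carry the same doubt. Between ablation and activation, where the columns match, the RE transcript had p = 0.0627 in the authors' deposited table, at 48.9 FPKM in ablation against 116 FPKM in activation. Rpn6 kept RA as its main transcript, with its RB transcript at 27.3% in ablation, 15.1% in activation and 8.99% in control.

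**Figure D4:**
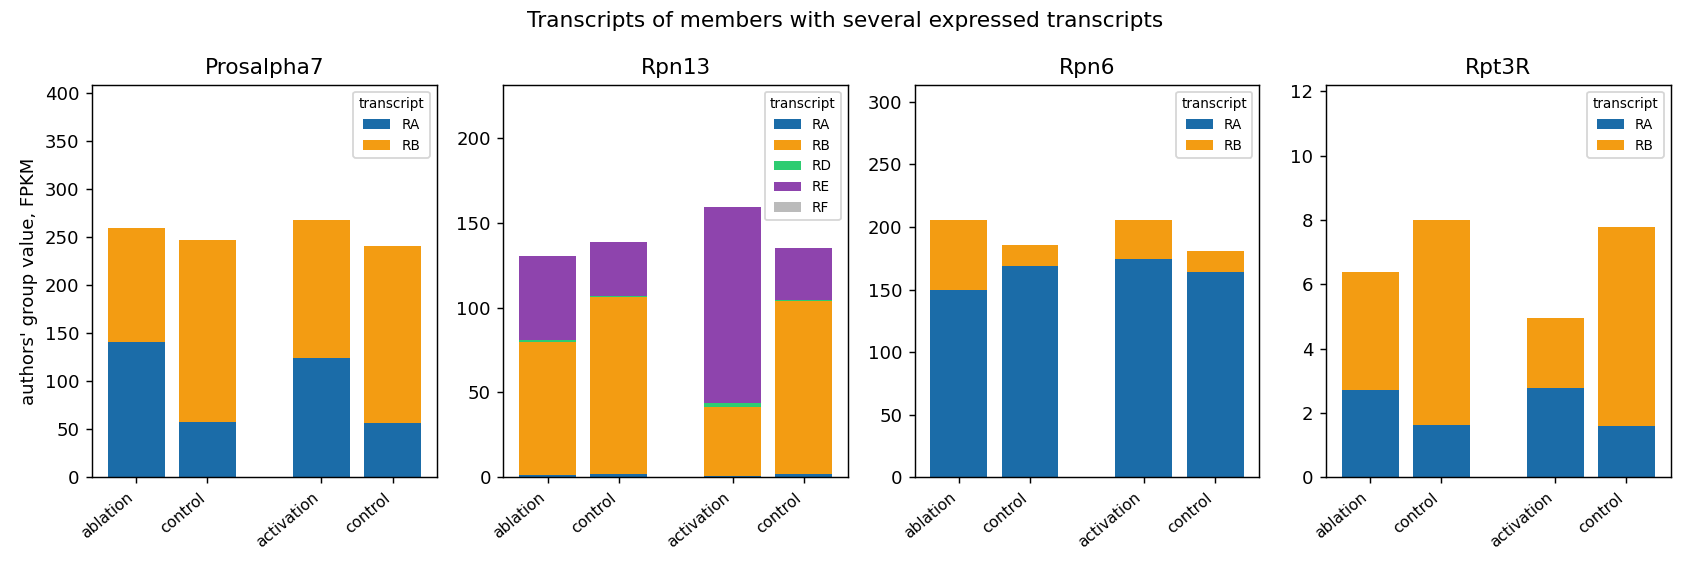
Group values in FPKM (y axis) of the transcripts of Prosalpha7, Rpn13, Rpn6 and Rpt3R, stacked by transcript. Each panel has its own scale and shows the bars of ablation and control, then of activation and control, each pair from its own table. Prosalpha7 RA takes 54.1% of the bar in ablation against 23.5% in control, and Rpn13 RE takes 72.5% in activation against 22.7% in control.

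The copies with a T or R suffix had values of at most 8.01 FPKM. Of the 16 copies 14 were listed at 0 in ablation, 12 in activation and 13 in control, and 1 in ablation, 3 in activation and 1 in control reached 1 FPKM. An exact 0 in tables without counts can be a failed estimate, so a listing at 0 is not read as a level. Rpt3R, a copy of the ATPase gene Rpt3, was the most abundant, at 6.38 FPKM in ablation against 8.01 FPKM in control, and at 4.96 FPKM in activation against 7.79 FPKM in control, while Rpt3 itself was at 203 FPKM in ablation. Its RB transcript was at 3.66 FPKM in ablation against 6.37 FPKM in control and at 2.18 FPKM in activation against 6.19 FPKM in control, and RA was the more abundant in activation, at 2.77 FPKM. Rpt6R was at 0.799 FPKM in ablation against 0.851 FPKM in control, and at 2.57 FPKM in activation against 0.831 FPKM in control (p = 0.435 in the authors' deposited table). Rpn13R was listed at 0 in ablation against 0.270 FPKM in control, and was at 1.15 FPKM in activation against 0.263 FPKM in control. Of 23 testis genes found, 14 were listed at 0 in ablation, 13 in activation and 15 in control, among them aly, comr and sa in every group. The 23 summed to 26.0 FPKM in ablation against 19.5 FPKM in control, with 9 higher, 1 lower and 13 equal, and to 19.7 FPKM in activation against 19.0 FPKM in control, with 9 higher, 2 lower and 12 equal. Among those above 0 were bol, at 8.03 FPKM in ablation against 4.37 FPKM in control, and twe, at 7.15 FPKM in ablation against 5.28 FPKM in control. The 1 lower in ablation was topi, a spermatocyte regulator, listed at 0 in ablation against 5.41 FPKM in control, for which the authors' deposited table lists p = 5e-05 with q = 0.0324. In activation topi was listed at 0 too, against 5.25 FPKM in control, with the same p and q = 0.0537. Both rest on a listing at 0, so neither is read as a change. The part of testis-type expression in the copies' values was not tested.

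Prosalpha1 and its copy Prosalpha1R were both listed at 0 in all groups and tables. They lie beside each other on 2R of build dm3, Prosalpha1 in a locus from 3712997 to 3716181 and Prosalpha1R from 3717911 to 3719274. An alpha ring needs this subunit, and no level is given for either gene.

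No listed gene that works with the proteasome passed. The list of 22, of which 21 were found, covering assembly factors, activators, ubiquitin, shuttling receptors and unfolding factors, had 11 higher and 10 lower in ablation than in control, with a median of 0.01 (43.6% of all genes with a tested transcript were lower). In activation 12 were higher and 9 lower than in control, with a median of 0.06 (43.4% of all lower). Between ablation and activation 7 were higher and 14 lower, with a median of -0.08 (48.8% of all lower). In ablation against control Cuffdiff called 0 of their 31 tested transcripts, beside 0.154% of all, and 0 had an unadjusted p under 0.05, beside 2.05% of all. In activation against control it called 0 of 33, beside 0% of all, and 3 had such a p, beside 3.05% of all. In ablation against activation it called 0 of 31, beside 0.37% of all, and 1 had such a p, beside 3.21% of all. The assembly factor Pomp was at 188 FPKM in ablation against 165 FPKM in control and at 178 FPKM in activation against 160 FPKM in control. Sem1, a small lid subunit named outside the Rpn series, was at 651 FPKM in ablation against 783 FPKM in control and at 577 FPKM in activation against 762 FPKM in control.

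Rad23, which carries tagged proteins to the proteasome, had its RA transcript at 207 FPKM in activation against 115 FPKM in control, and the authors' deposited table gives p = 0.016 and q = 0.915. The sum over Rad23 transcripts was higher in ablation too, at 181 FPKM against 123 FPKM in control. The polyubiquitin gene Ubi-p5E was at 207 FPKM in activation against 126 FPKM in control, with p = 0.0349 (q = 0.915) by the authors' deposited table. It was also higher in ablation, at 189 FPKM against 129 FPKM in control. The polyubiquitin gene Ubi-p63E had its RA transcript at 99.2 FPKM in ablation against 49.0 FPKM in activation, for which the authors' deposited table lists p = 0.00475 and q = 0.500. Its sum over transcripts was 107 FPKM in ablation against 86.0 FPKM in control, and 67.6 FPKM in activation against 83.8 FPKM in control. For cnc, a transcription factor whose mammalian relatives are known to drive proteasome genes, the RE transcript was at 0.00414 FPKM in activation against 22.6 FPKM in control, with p = 0.0167 (q = 0.915) by the authors' deposited table. The sum over all cnc transcripts was 39.1 FPKM in activation against 42.1 FPKM in control, and 31.1 FPKM in ablation against 43.3 FPKM in control.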

How the data were processed

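The authors deposited 3 Cuffdiff tables, with FPKM per group and transcript, a log2 fold change, a test statistic (a score), and p-values and q-values, per the file headers. TopHat2, Cufflinks, Cuffdiff and build dm3 are named in the submitters' processing notes; versions and gene annotation were not given in the sources used here. Depth is unknown. Activation is named induction in the tables. Each comparison uses its own table, since control values of general subunits differ by a median of 1.03 times between tables.

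CG numbers were matched to RefSeq symbols (Release 6), 47 members by locus tag and Rpn3 by synonym. Coordinates are dm3 loci of the deposited tables, covering overlapping genes. Of loci with 1 transcript, 630 match the reference gene length if starts count from 0 and 114 if from 1, so 1 was added to each start. The implied standard error is the deposited log2 change over the statistic. Where an alternative changes the p-values, q was recomputed with the Benjamini-Hochberg method, which was tested on simulated data.

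Members, lists and tests were chosen with earlier results of these data known. Named members are the catalytic subunits, the highest and lowest of each role in control, the 5 largest changes each way, members with p under 0.05, copies reaching 1 FPKM and members whose main transcript differs; Prosbeta6, Rpt1, Rpn10, Pomp, Sem1, CG31142, Sgs7, Sgs8, bol and twe were chosen after their values were seen. Alternatives were other pseudocounts (0.1 and 5), q thresholds (0.1 and 0.01), normal p-values, adjustment over all 3 tables, centring, main transcripts and minimum levels. Values were computed in Python 3.11.15 with pandas 2.3.3, numpy 2.4.6 and scipy 1.17.1, and drawn with matplotlib 3.10.9.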

Additional observations from a re-analysis of the deposited data

How the results depend on the processing

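The count of 0 called member transcripts was also 0 in all 3 comparisons at a q threshold of 0.1, with normal p-values and with adjustment over all 3 tables. A stricter threshold of 0.01, a minimum of 1 FPKM and leaving out the copies cannot raise a count of 0, so they say nothing about its stability. Under the alternative settings 81 values stayed close to the main value (medians within 0.05, counts within 1.5 times) and 12 moved. The 81 include the settings that cannot raise a count of 0, so this tally is no measure of stability. In ablation against control, 1 general subunit in place of 2 had an unadjusted p under 0.05 both with normal p-values and without transcripts whose deposited log2 change differs from the FPKM ratio. The median over all members was -0.17 when centred on all genes, -0.13 with the main transcript alone, -0.20 with a minimum of 1 FPKM and -0.19 over members with a tested transcript, and that over general subunits was -0.28 when centred. In activation against control, centring gave medians of -0.10 over all members and -0.14 over general subunits, with 7 of them higher. In ablation against activation, the median over all members was -0.085 with a minimum of 1 FPKM and -0.090 over members with a tested transcript. Centring subtracts the all-gene median. The minimum of 1 FPKM drops Prosalpha1 and the copies below it, and the members with a tested transcript also leave out Prosbeta7. What moved the main-transcript value was not tested. Leaving out Rpt2 or Prosalpha1 from the general subunits, chosen after seeing the data, moved no median by over 0.05. No paired analysis was possible because the tables hold 1 value per group and none per replicate, and for the same reason no replicate could be left out.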

Other observations

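The general subunits above 0 were also grouped by chromosome arm. In ablation against control the median log2 change was 0.01 over 4 genes on X, -0.38 over 4 on 2L, -0.15 over 9 on 2R, -0.29 over 5 on 3L and -0.26 over 9 on 3R. In activation against control it was 0.02 on X, -0.29 on 2L, -0.08 on 2R, -0.02 on 3L and -0.14 on 3R. These differences between arms were not tested.

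The self-contradiction of the Rpn13 rows is found elsewhere in the tables. The deposited log2 change differed by over 0.01 from the log2 ratio of the deposited FPKM values for 47 transcripts of 16 genes in the table of ablation and control, 64 of 16 genes in that of activation and control, and 29 of 11 genes in that of ablation and activation. Among members, 4 transcripts were affected in each table with control, all of Rpn13, and 0 in the table of ablation and activation.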
